A study of Mus musculus with 576 samples.

Results

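The Fgf genes described here are 10 members of the fibroblast growth factor pathway, namely the ligands Fgf10, Fgf7, Fgf9 and Fgf18, the receptors Fgfr1, Fgfr2 and Fgfr3, and the feedback targets Spry2, Spry4 and Etv5. They were taken by gene symbol from the 36658 gene identifiers of the count tables, and all 10 were present in the tables of all 3 mouse lines. The data come from sorted GFP+ cells of the dorsal pancreas at embryonic day 12.5, each made into 1 full-length library in a well of its own (Smart-seq2). The Nkx2.5 line carries Nkx2.5-Cre and the R26mTmG reporter, and the Nkx3.2 line carries the same reporter with Nkx3.2-Cre. GFP there marks cells in which the Cre, driven by a mesenchymal transcription factor gene, has been active, and their descendants, so that a cell need not still express the driver. The Prox1 line is the BAC transgene Tg(Prox1-EGFP), in which EGFP reports Prox1, a transcription factor gene of the pancreatic epithelium. All mice were bred on C57BL/6J, and embryos were not sexed. Each line filled 2 plates of 96 wells, called 6A and 6B for the Nkx2.5 line, 7A and 7B for the Nkx3.2 line, and 8A and 8B for the Prox1 line.

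Fgf ligands are secreted proteins that bind receptor tyrosine kinases of the Fgfr family and activate the Ras-ERK cascade. Fgf10 and Fgf7 act mainly on the IIIb splice form of Fgfr2, which is typical of epithelia, whereas Fgf9 and Fgf18 bind Fgfr3 and the IIIc forms, the latter being typical of mesenchyme. In the developing pancreas, mesenchymal Fgf10 is known to sustain epithelial progenitors. The Sprouty proteins encoded by Spry2 and Spry4 are induced by the pathway and inhibit it, and Etv5 encodes an ETS transcription factor whose transcription follows Fgf signaling in many tissues.

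Which embryo a cell came from is not given by the labels, so a line counts as 1 sample here and no test was made across its cells. Of 576 cells, 549 passed the filter on counts, genes and mitochondrial share, with medians of 1056673, 896115 and 808005 counts and of 5750, 7235 and 6993 detected genes per cell in the lines Nkx2.5, Nkx3.2 and Prox1. Cells were clustered within each line without the 10 members and without 43 other genes of the pathway, and clusters were named from marker genes. This gave 87 and 81 mesenchyme-like cells on plates 6A and 6B with 5 mesothelium-like cells in the Nkx2.5 line, and 92 and 76 on plates 7A and 7B with 23 mesothelium-like cells in the Nkx3.2 line. The Prox1 line held 88 epithelium-like, 19 endocrine-like and 77 mesenchyme-like cells and 1 other cell, so that its EGFP+ sort was not epithelium alone. All 11 epithelial markers were detected in over 50% of the epithelium-like cells, 8 to 9 of 12 mesenchymal markers in the mesenchyme-like cells, and 8 of 10 mesothelial markers in the mesothelium-like cells of the Nkx3.2 line. The 5 mesothelium-like cells of the Nkx2.5 line carried 6 of these 10. Mesenchymal markers summed to 236.5 CPM (10000 CPM is 1% of all counts) in the epithelium-like cells and to between 5233 and 6368 CPM in the mesenchyme-like cells, with Twist1 at 0 in the former. Epithelial markers summed to between 17.2 and 28 CPM in the mesenchyme-like cells and to 5489 CPM in the epithelium-like cells, with Pdx1 and Foxa2 at 0 in the mesenchyme-like cells of all lines. Levels below are CPM of the counts summed over the cells of a class, and brackets after them give exact 95% Poisson intervals. Brackets after percentages are exact 95% binomial intervals. The Poisson intervals treat each read as an independent count. Smart-seq2 attaches no molecular identifiers and PCR copies are counted, so these intervals are narrower than the error of counting molecules. They also leave out the spread between cells, and sums that rest on few cells are less certain than they show. The binomial intervals treat each cell as independent. Neither kind covers the spread between embryos. The spread between the plates of a line is given in its place.

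Among the ligands, Fgf9 had the highest level, and it was found mainly in mesothelium-like cells. It lies at chr14:58070547-58112720 on the plus strand of GRCm38 (ENSMUSG00000021974) and was found at 149.8 CPM [144.4 to 155.4] in the mesothelium-like cells of the Nkx3.2 line, the outer cell layer of the organ, with 253 CPM on plate 7A and 126.9 CPM on plate 7B. A count was found in 22 of these 23 cells, also after thinning each cell to 100000 counts, and the highest cell reached 399 CPM. In the 5 mesothelium-like cells of the Nkx2.5 line, Fgf9 was at 125.1 CPM [115.6 to 135.3], with a count in 4 cells. In the mesenchyme-like cells it was at 0.287 CPM in the Nkx2.5 line, 0.425 CPM in the Nkx3.2 line and 0.204 CPM in the Prox1 line, so that every mesothelial plate sum lay above every mesenchymal plate sum. The epithelium-like cells held 4.83 CPM [4.34 to 5.35], with 5.37 CPM on plate 8A and 4.22 CPM on plate 8B, from 13 of 88 cells. A single cell gave 28.65% of that sum, and after thinning 6 of 88 cells (6.82%) had a count, against 1 of 77 mesenchyme-like cells (1.30%) of the same plates. In the endocrine-like cells 2 of 19 had a count as sequenced and none after thinning.

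Fgf10, the canonical mesenchymal ligand of the pancreas, was carried by few cells. Its gene spans chr13:118669791-118792115 on the plus strand (ENSMUSG00000021732). It was at 3.56 CPM [3.28 to 3.86] in the mesenchyme-like cells of the Nkx2.5 line, with 4.58 CPM on plate 6A and 2.46 CPM on plate 6B. Without its highest cell it was at 2.51 CPM in this line, below that interval. In the Nkx3.2 line it was at 3.86 CPM [3.55 to 4.18], with 2.03 CPM on plate 7A and 6.70 CPM on plate 7B. In the Prox1 line it was at 7.48 CPM [6.80 to 8.21], with 4.75 CPM on plate 8A and 9.33 CPM on plate 8B. The plate values of the Nkx3.2 line overlapped with those of both other lines, whereas both plates of the Prox1 line lay above both of the Nkx2.5 line, the nearest at 4.75 and 4.58 CPM. These sums came from 11 cells (6.55%), 15 cells (8.93%) and 9 cells (11.7%), and the single highest cell gave between 26.5% and 33.4% of the counts of each line, at 189.5 to 224.9 CPM in that cell. Single plates rested on 1 cell to a greater extent, which gave 98.23% of the counts on plate 8A, 90.07% on plate 6B and 82.8% on plate 7A, and without it these plates were at 0.0872, 0.248 and 0.352 CPM. In the epithelium-like cells only 2 counts were found, in 2 of 88 cells, and none after thinning. The mesothelium-like cells were higher than the mesenchyme-like cells of their line, at 48.7 CPM (3 of 5 cells, 78.9% of the counts in 1 cell) in the Nkx2.5 line and 13.5 CPM (6 of 23 cells) in the Nkx3.2 line. In the Nkx2.5 line this came from plate 6A, at 86.5 CPM in 3 cells, whereas the 2 cells of plate 6B were at 2.21 CPM [0.716 to 5.15], against 2.46 CPM in the mesenchyme-like cells of that plate.

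Fgf7 and Fgf18 were close to the detection limit. Fgf7, a ligand of the same receptor form as Fgf10 (ENSMUSG00000027208, chr2:126034658-126091185, plus strand), was at 0.118 CPM in the mesenchyme-like cells of the Nkx2.5 line and 0.0798 CPM in those of the Nkx3.2 line. Its 1.24 CPM in the mesenchyme-like cells of the Prox1 line came to 90.4% from 1 cell, and its 1.49 CPM in the epithelium-like cells came almost wholly from 1 cell on each plate, which gave 96.7% of the counts on plate 8A and 98.04% on plate 8B. Fgf18 (ENSMUSG00000057967, chr11:33117430-33147400, minus strand) was at 1.19 CPM and 0.644 CPM in the mesenchyme-like cells of the Nkx2.5 and Nkx3.2 lines and had no count in the 77 mesenchyme-like cells of the Prox1 line, which allows a share of cells with a count of up to 3.90%. It was highest in the mesothelium-like cells of the Nkx3.2 line, at 6.27 CPM from 6 of 23 cells, with 6.59 CPM on plate 7A and 6.19 CPM on plate 7B, and it had no count in the 5 mesothelium-like cells of the Nkx2.5 line. Counting cells with at least 5 counts of any of the 4 ligands, the share was 10.1% [6.01 to 15.7] of the mesenchyme-like cells of the Nkx2.5 line, 7.74% [4.18 to 12.9] of those of the Nkx3.2 line and 7.79% [2.91 to 16.2] of those of the Prox1 line. None of these mesenchyme-like cells held 2 of the ligands at that level. The same count gave 23 of 23 mesothelium-like cells of the Nkx3.2 line, 7 of them with 2 or more ligands, and 9 of 88 epithelium-like cells. Per kilobase of transcript, other ligand genes of the pathway stood above these 4 in the mesenchyme-like cells. Fgf1 was highest in the Nkx3.2 line (5.94 CPM per kilobase, 18 cells) and the Prox1 line (16.9, 13 cells). In the Nkx2.5 line Fgf2 (10.7, 12 cells) and Fgf1 (9.18, 19 cells) led. Fgf10 was at 0.866, 0.937 and 1.82 CPM per kilobase in the lines Nkx2.5, Nkx3.2 and Prox1.

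**Figure D1:**
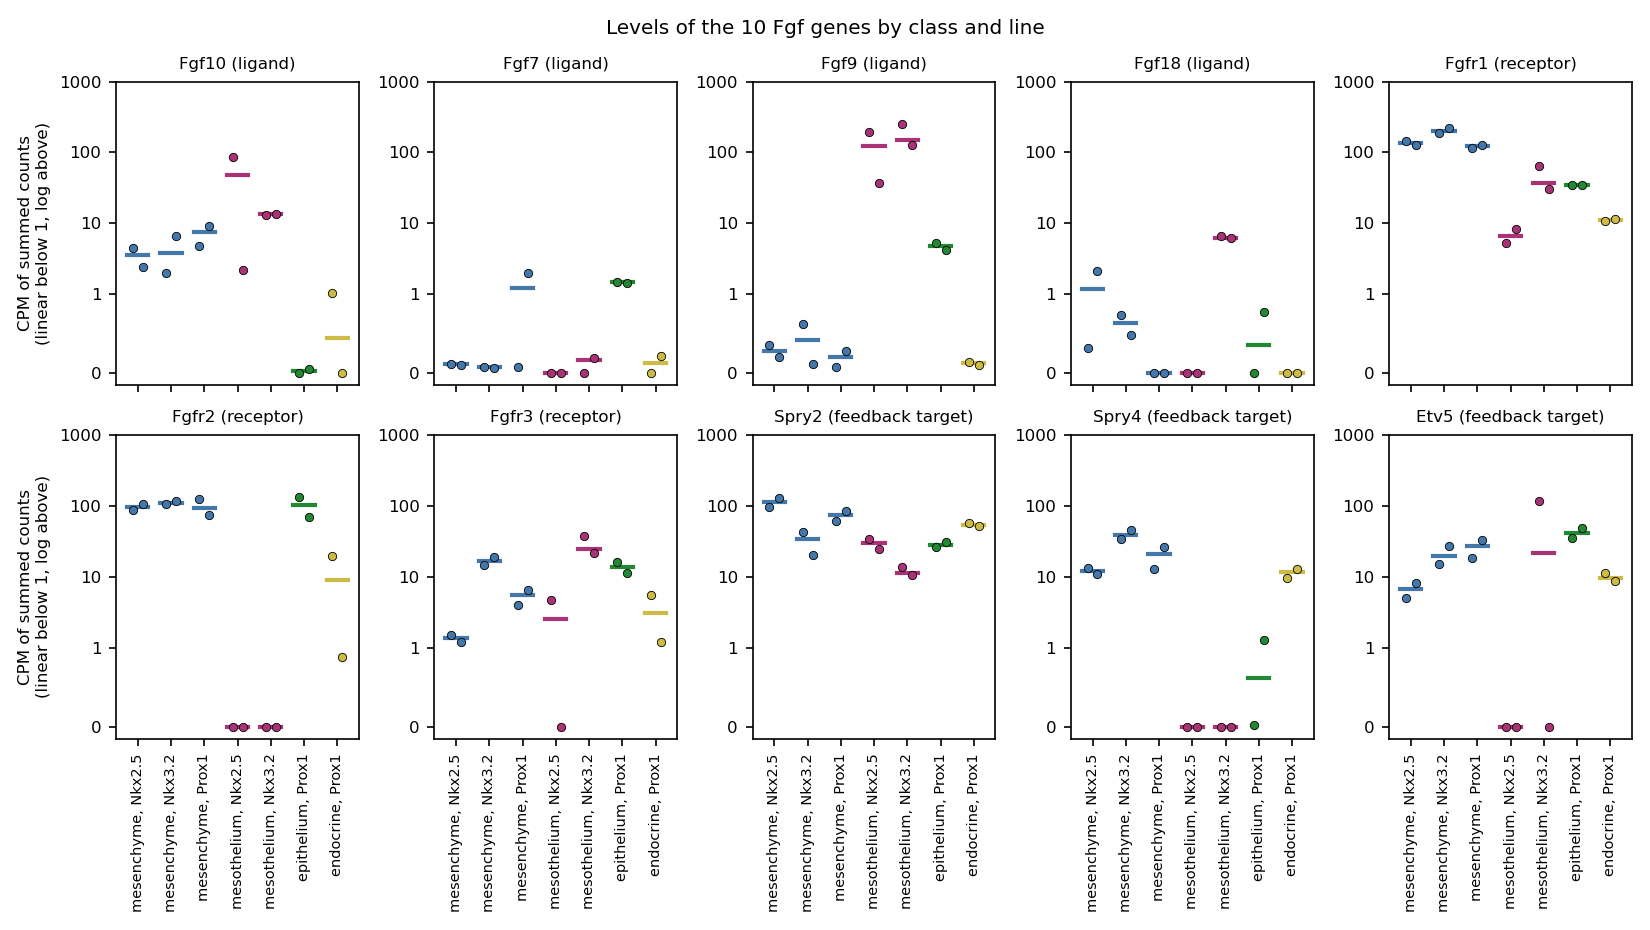
Level of each of the 10 genes in CPM of summed counts (y axis, linear below 1 and logarithmic above) for every class and line (x axis). Bars mark the sum over both plates and points the 2 plates, with plates 6A, 7A and 8A on the left. Fgf9 was at 125.1 and 149.8 CPM in mesothelium-like cells and below 1 CPM in mesenchyme-like cells, Fgfr2 was near 100 CPM in both mesenchyme-like and epithelium-like cells with no count in mesothelium-like cells, and Spry4 was at 0.618 CPM in epithelium-like cells.

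Among the receptors, Fgfr1 was detected in most mesenchyme-like cells, and Fgfr2 was found at like levels in mesenchyme and epithelium. Fgfr1 (ENSMUSG00000031565, chr8:25513654-25575718, plus strand) was at 137.1 CPM [135.4 to 138.9] in the mesenchyme-like cells of the Nkx2.5 line, 201.6 CPM [199.4 to 203.9] in the Nkx3.2 line and 123.7 CPM [120.9 to 126.6] in the Prox1 line. It was detected in 85.1%, 95.8% and 85.7% of these cells. The Nkx3.2 line was highest on both of its plates, at 188.3 and 222.4 CPM, against 127.4 to 146.1 CPM in the Nkx2.5 line and 116.7 to 128.4 CPM in the Prox1 line. In the epithelium-like cells Fgfr1 was at 34.4 CPM on plate 8A and 34.8 CPM on plate 8B, in 59 of 88 cells.

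Fgfr2 (ENSMUSG00000030849, chr7:130162451-133123350, minus strand) was at 97.04 CPM in the mesenchyme-like cells of the Nkx2.5 line, 110.7 CPM in those of the Nkx3.2 line and 94.7 CPM in those of the Prox1 line. The epithelium-like cells were at 103.3 CPM. The plates of the Prox1 line differed more than its classes did, with 33.12 and 19.67 CPM per kilobase of transcript in the mesenchyme-like cells and 35.23 and 18.47 in the epithelium-like cells of plates 8A and 8B. A count was found in 69.3% of epithelium-like cells, against 42.3%, 62.5% and 59.7% of mesenchyme-like cells in the order of the lines above. The counts are per gene, so the IIIb and IIIc forms of this receptor were not told apart. In the mesothelium-like cells, no Fgfr2 count was found in 23 cells of the Nkx3.2 line, which allows a share of up to 13.04%, nor in 5 cells of the Nkx2.5 line.

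Fgfr3 (ENSMUSG00000054252, chr5:33721674-33737068, plus strand) was lower than Fgfr1 and Fgfr2 in the mesenchyme-like, epithelium-like and endocrine-like cells. It was at 1.38 CPM in the mesenchyme-like cells of the Nkx2.5 line (3 cells), 16.5 CPM in those of the Nkx3.2 line (23 cells) and 5.51 CPM in those of the Prox1 line (4 cells). The epithelium-like cells held 13.8 CPM, with 16.02 CPM on plate 8A and 11.2 CPM on plate 8B, from 14 of 88 cells. Its highest level was in the mesothelium-like cells of the Nkx3.2 line, which had no Fgfr2 count, at 24.8 CPM from 5 of 23 cells, 1 of which gave 42.95% of the counts. In the 5 mesothelium-like cells of the Nkx2.5 line it was at 2.57 CPM, from 1 cell. Per kilobase of transcript, the order in the mesenchyme-like cells of all 3 lines was Fgfr1, Fgfr2 and then Fgfrl1, a receptor without a kinase domain, with Fgfr1 at 31.2, 45.9 and 28.2 CPM per kilobase and Fgfr2 at 25.7, 29.3 and 25.1. In the epithelium-like cells the order was Fgfr2 at 27.4, Fgfr4 at 22.3 and Fgfrl1 at 21.1 CPM per kilobase. The first 2 in the Prox1 mesenchyme and all 3 in the epithelium lay closer together than the 2 plates of Fgfr2.

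The feedback targets differed from one another in where they were found. Spry2 (ENSMUSG00000022114, chr14:105891947-105896819, minus strand) was detected in every class. It was at 112.5 CPM [110.9 to 114.1] in the mesenchyme-like cells of the Nkx2.5 line, 34.4 CPM [33.4 to 35.3] in those of the Nkx3.2 line and 74.99 CPM [72.8 to 77.2] in those of the Prox1 line. Its share of mesenchyme-like cells with a count was over 90% in all 3 lines, at 94.05%, 90.5% and 92.2%. The epithelium-like cells were at 28.4 CPM and the endocrine-like cells at 54.1 CPM. Spry4 (ENSMUSG00000024427) was highest in the mesenchyme-like cells of the Nkx3.2 line. In the mesenchyme-like cells it was at 12.3 CPM [11.7 to 12.8] in the Nkx2.5 line, 39.2 CPM [38.2 to 40.2] in the Nkx3.2 line and 21.1 CPM [19.95 to 22.3] in the Prox1 line, in 34 (20.2%), 63 (37.5%) and 19 (24.7%) mesenchyme-like cells. In the epithelium-like cells 4 of 88 had a count, and 1 of these cells gave 82.6% of the 46 counts, whereas the endocrine-like cells were at 11.6 CPM, from 4 of 19 cells, near the level in the Nkx2.5 mesenchyme. Etv5 (ENSMUSG00000013089, chr16:22381309-22439719, minus strand) was found in both compartments, at 6.65 CPM in 9, 19.9 CPM in 35 and 27.1 CPM in 16 mesenchyme-like cells of the lines Nkx2.5, Nkx3.2 and Prox1 and at 41.6 CPM in 27 of 88 epithelium-like cells. In the mesothelium-like cells neither Spry4 (0 of 5 and 0 of 23 cells) nor, apart from 1 cell with 341.7 CPM, Etv5 was found.

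Etv5 is itself an ETS factor, a class of proteins that bind the core GGAA, so the windows of 250 bases before the annotated start sites of the feedback targets Spry2 and Etv5 are shown to let the reader see where this core lies. They were taken from RefSeq (GRCm38.p6). Windows of 8 of the 10 members were searched, and windows of Fgfr1 and Spry4 were not used. Each is written 5′ to 3′ on the strand of the gene, and capitals mark GGAA or its reverse complement TTCC.
Spry2, chr14:105896820-105897069, minus strand: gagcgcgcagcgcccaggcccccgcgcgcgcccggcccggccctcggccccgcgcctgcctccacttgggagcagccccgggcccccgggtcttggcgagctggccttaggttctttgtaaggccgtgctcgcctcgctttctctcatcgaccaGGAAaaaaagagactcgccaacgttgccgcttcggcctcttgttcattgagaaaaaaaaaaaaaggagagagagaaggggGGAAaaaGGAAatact
Etv5, first start, chr16:22439571-22439820, minus strand: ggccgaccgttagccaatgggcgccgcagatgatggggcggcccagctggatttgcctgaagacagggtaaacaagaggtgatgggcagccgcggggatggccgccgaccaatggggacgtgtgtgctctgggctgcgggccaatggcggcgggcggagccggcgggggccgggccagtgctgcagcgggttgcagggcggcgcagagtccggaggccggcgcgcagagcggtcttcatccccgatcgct
Etv5, second start, chr16:22438369-22438618, minus strand: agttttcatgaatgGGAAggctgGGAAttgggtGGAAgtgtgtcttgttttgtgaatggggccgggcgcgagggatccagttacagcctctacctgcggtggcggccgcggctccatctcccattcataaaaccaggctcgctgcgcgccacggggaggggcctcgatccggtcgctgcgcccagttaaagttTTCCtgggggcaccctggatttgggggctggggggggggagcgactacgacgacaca
The core was found 3 times in the Spry2 window, 4 times in the window of the second Etv5 start and not in that of the first. It is a short motif, held on either strand by 93.5% of all 32851 windows of this length. The longer form CCGGAA, or TTCCGG on the other strand, was in none of the 10 windows of the 8 members searched and in 12.03% of all windows.

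The ligands of the mesenchyme were then set against the receptors and targets of the epithelium within the Prox1 line, whose plates hold both compartments. In the epithelium-like cells, Fgf10, Fgfr1, Spry2 and Spry4 were called lower and no member was called higher than in the mesenchyme-like cells of this line. These mesenchyme-like cells were sorted as EGFP+, so they need not stand for all mesenchyme. Fgf10, Fgfr1 and Spry4 were also higher in the mesenchyme-like cells of the other lines than in this epithelium. Spry2, at 28.4 CPM in the epithelium-like cells, was near the 34.4 CPM of the Nkx3.2 mesenchyme. A gene was called when its CPM differed by at least 2-fold in the sums of every pair of plates compared, among genes at 5 CPM or more in either group, with sums under 3 counts set to 3 counts. By this rule 4 of the 7 members that reached 5 CPM were called lower in the epithelium, where 11.3% of all 12116 such genes were, and 0 of 7 higher, where 12.4% were. The median log2 ratio of the 7 members was -1.40, beside 0.00 over all genes compared. Fgf10 was at least 185.5-fold lower, Spry4 34.15-fold lower (20.7-fold on the plate where it differed least), Fgfr1 3.57-fold lower (3.39-fold to 3.69-fold) and Spry2 2.64-fold lower (2.29-fold to 2.76-fold). The call of Fgf10 rests on few cells. Without plate 8B it fell under 5 CPM and was not called, and on plate 8A all but 2 of its mesenchymal counts came from 1 cell.

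The other 3 members compared were not called. Fgfr2 was 1.09-fold higher in the epithelium-like cells, with plate ratios from 0.939 to 1.06. Etv5 was 1.53-fold higher, by 1.92-fold on plate 8A and 1.48-fold on plate 8B. Fgfr3 was 2.495-fold higher, by 3.97-fold on plate 8A and 1.72-fold on plate 8B, and was called higher when the mean of each cell was used in place of the sum, when cells were thinned or when plate 8B was left out. Fgf9, under 5 CPM in both groups and so not compared, stood at 4.83 CPM in the epithelium-like and 0.204 CPM in the mesenchyme-like cells. With the endocrine-like cells counted as epithelium, an alternative chosen after seeing the data, Spry2 was no longer called.

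**Figure D2:**
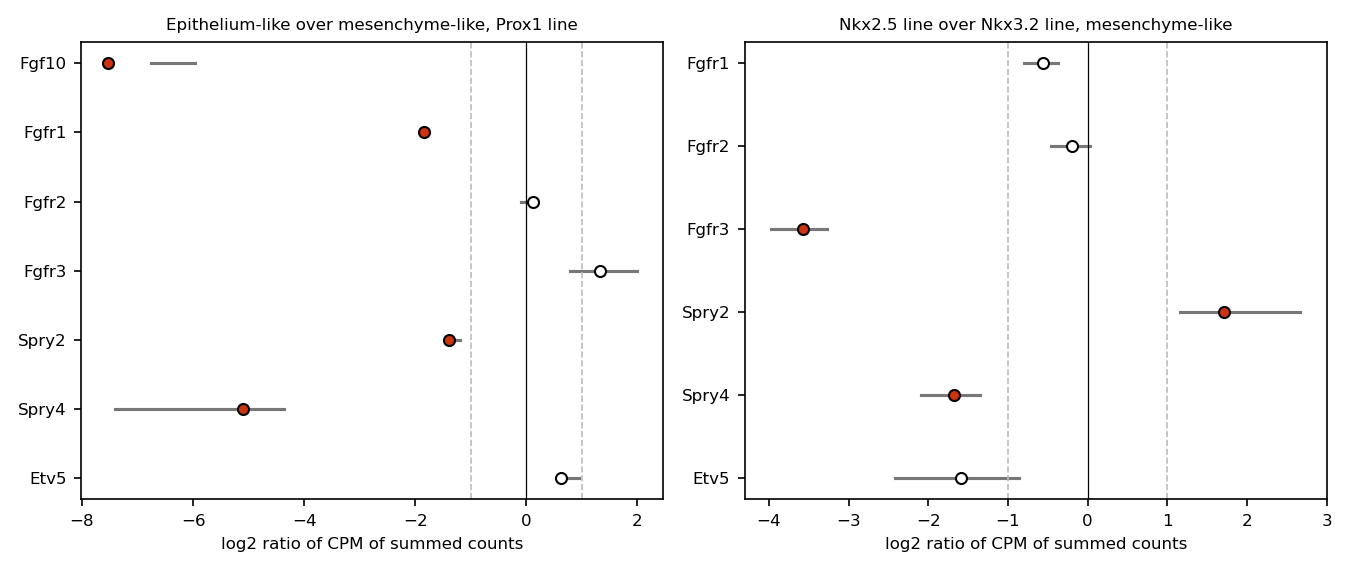
Log2 ratio of CPM (x axis) for each member at 5 CPM or more (y axis), left for epithelium-like over mesenchyme-like cells of the Prox1 line and right for the Nkx2.5 line over the Nkx3.2 line in mesenchyme-like cells. Points are sums over both plates, filled where the gene was called, grey lines run from the lowest to the highest ratio of the plate pairs, and dashed lines mark a 2-fold difference. On the left Fgf10 lies beyond its plate range because its epithelial sums were set to 3 counts, which weighs more in a single plate, and on the right Fgfr3 and Spry4 are lower and Spry2 is higher in the Nkx2.5 line.

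Among the other 43 genes of the pathway, 25 reached 5 CPM in this comparison, of which 3 were called higher and 8 lower in the epithelium, with a median log2 ratio of -0.93. The 3 higher genes were Fgfr4 at 74.1 CPM in 60 of 88 epithelium-like and 1 of 77 mesenchyme-like cells, its co-receptor Klb (beta-Klotho) at 48.2 CPM against 0.1865 CPM, and the phosphatase gene Dusp5 at 8.25 CPM against 0.1865 CPM. Fgfr4 was 70.3 CPM on plate 8A and 78.5 CPM on plate 8B. In the mesenchyme-like cells of the other lines it had a count in 0 cells and 1 cell. The 8 lower genes were the ligand gene Fgf1, Fgf12, the inhibitors Spry1, Spred1 and Spred2, the ETS gene Etv1, and Flrt1 and Flrt3. Fgf12 encodes an intracellular Fgf homologue, and Flrt1 and Flrt3 encode membrane proteins that bind Fgf receptors. Spry1 was at 9.17 CPM in the epithelium-like and 31.3 CPM in the mesenchyme-like cells. The feedback phosphatase Dusp6 was not called, at 106.1 CPM in the epithelium-like and 133.7 CPM in the mesenchyme-like cells.

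Within the epithelium-like cells, the receptors and Etv5 were unevenly spread. The 5 epithelium-like clusters were parted by their mean level of markers of the tip, the domain that forms acinar cells, at a limit set after the clusters had been seen, into 53 cells of clusters with high tip markers and 35 cells of clusters with low ones. Fgfr2 was at 58.9 CPM [56.7 to 61.1] in the former and 177.4 CPM [172.5 to 182.4] in the latter, with 78.3 and 37.97 CPM against 218.4 and 126.6 CPM on plates 8A and 8B, so that the plate values did not overlap. Fgfr3 was at 1.94 CPM (2 of 53 cells) against 33.5 CPM (12 of 35 cells), with 0 and 4.02 CPM against 41.1 and 24.03 CPM on the plates. Etv5 had the opposite order, at 52.6 CPM (22 of 53 cells) against 23.2 CPM (5 of 35 cells), with 44.9 and 60.8 CPM against 19.2 and 28.3 CPM on the plates. Fgfr4, at 69.3 and 82.1 CPM, and Spry2, at 26.1 and 32.35 CPM, differed less, and the plate values of Spry2 overlapped. Cluster 1, with leading genes that include Glis3, Pkhd1 and Cldn9, held the most Fgfr2 (268.5 CPM, 13 of 14 cells) and Fgfr3 (57.4 CPM, 7 of 14 cells) and no Etv5, and cluster 7, with Cel, Pnliprp1 and Spink1 among its leading genes, held the most Etv5 (101.7 CPM, 9 of 15 cells) and the least Fgfr2 (34.3 CPM). Etv5, Fgfr2 and Fgfr3 also differed by assigned cell cycle phase, with 28 epithelium-like cells scored as G1, 32 as S and 28 as G2/M. In this order Etv5 was at 5.78, 38.8 and 75.7 CPM. Fgfr2 was at 153.9, 95.8 and 67.7 CPM and Fgfr3 at 26.1, 7.00 and 10.4 CPM. The part of phase in the differences between clusters was not tested.

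**Figure D3:**
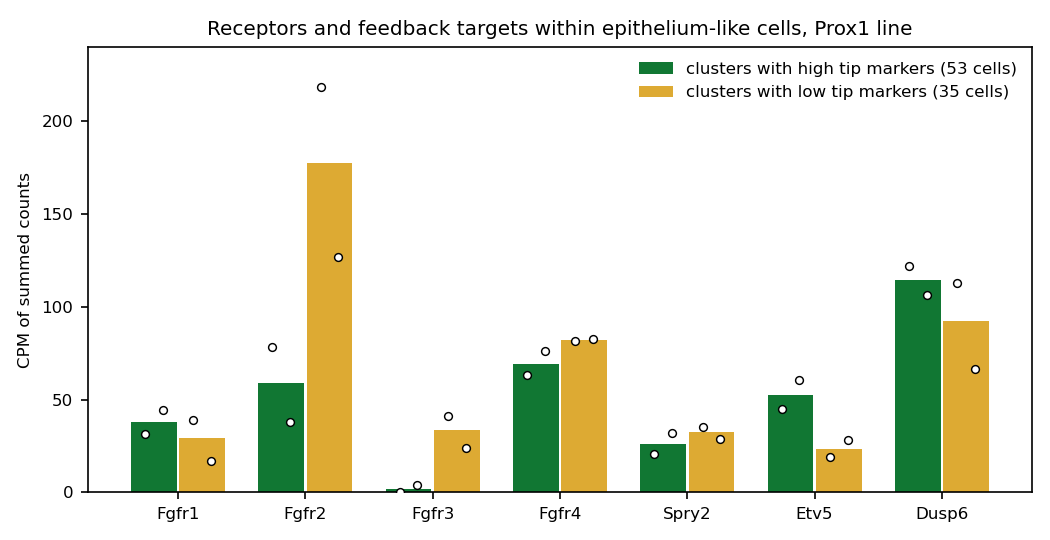
CPM of summed counts (y axis) of receptors and feedback targets (x axis) in the epithelium-like cells of the Prox1 line, with bars for clusters with high and with low tip markers and points for plates 8A (left) and 8B (right). Fgfr2 (58.9 against 177.4 CPM) and Fgfr3 (1.94 against 33.5 CPM) were higher in clusters with low tip markers and Etv5 (52.6 against 23.2 CPM) in those with high tip markers.

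The endocrine-like cells, led by Gcg, Pyy and Chgb, held less of all 3 receptors than the other epithelium-like cells. Of the 6 members at 5 CPM or more, 4 were called lower, where 17.1% of all 12404 genes were, and 1 higher, where 14.4% were. Their median log2 ratio was -1.86, beside -0.10 over all genes. Fgfr2 was at 8.95 CPM in 4 of 19 cells, 11.55-fold lower, with 19.8 CPM on plate 8A and 0.886 CPM on plate 8B. A single cell gave 82.3% of these counts, and without it Fgfr2 was at 1.68 CPM. Fgfr1 was at 11.2 CPM, 3.08-fold lower, and at 5.85 CPM without its highest cell. Also lower were Fgfr3 at 3.11 CPM, 4.42-fold lower, and Etv5 at 9.77 CPM in 5 of 19 cells, 4.25-fold lower. Spry4 was the member called higher, at 11.6 CPM against 0.618 CPM, but from 4 of 19 cells, 2 on each plate. Spry2, found in 18 of 19 cells at 54.1 CPM, was 1.904-fold higher, with plate ratios of 2.18 and 1.68, and was called higher without plate 8B but under no other alternative run. Of the other pathway genes, 23 were compared, 5 were called higher and 6 lower, and the median log2 ratio was 0.10. Etv1 was at 320.8 CPM in 19 of 19 endocrine-like cells and at 9.84 CPM in the other epithelium-like cells. Fgf12, Fgf14 and Fgf20, of which the first pair encodes intracellular Fgf homologues, and Spred3 were also higher. Fgf20 came from 1 cell. On the plate without that cell it passed the rule only because its endocrine sum was set to 3 counts in a smaller total. Fgfr4, Fgfrl1, Gab1, Etv4, Dusp6 and Flrt2 were lower, with Fgfr4 still at 20.1 CPM in 9 of 19 cells. These values rest on 19 cells.

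The mesothelium-like cells held more Fgf9, Fgf10 and Fgf18 and less Fgfr1, Fgfr2 and Spry4 than the mesenchyme-like cells. Only plate 7B held at least 5 cells of both classes, so that calls rest on the Nkx3.2 line and on 1 pair of plate sums. Of 9 members at 5 CPM or more, the 3 ligands were called higher, where 11.8% of all 11906 genes were, and the other 3 genes lower, where 12% were. The median log2 ratio of the 9 members was 0.11, beside 0.01 over all genes. Fgf9 was 352-fold higher, Fgf18 9.73-fold and Fgf10 3.49-fold, the last by 2.02-fold on plate 7B and not called with edgeR TMM factors or with thinned cells. Fgfr2 was at least 707-fold lower, Spry4 at least 250.2-fold lower and Fgfr1 5.45-fold lower. Spry2, at 11.2 CPM against 34.4 CPM, was 1.91-fold lower on plate 7B and was not called. Etv5 came from 1 cell on plate 7A and was not called, but was called lower without that plate or with thinned cells. The 5 mesothelium-like cells of the Nkx2.5 line are too few per plate for a call, and their values had the same direction for Fgf9 (435-fold higher), Fgf10 (13.7-fold higher), Fgfr1 (20.5-fold lower), Fgfr2 (at least 163.7-fold lower) and Spry4 (at least 20.7-fold lower). Fgf18 did not share it, with no count in these 5 cells against 1.19 CPM in the mesenchyme-like cells. Of the other pathway genes, 20 were compared in the Nkx3.2 line, 5 were called higher and 8 lower. The ligand gene Fgf5 was at 47.1 CPM in 10 of 23 cells, against 0.0728 CPM in the mesenchyme-like cells, and at 43.3 CPM in 3 of the 5 cells of the Nkx2.5 line. Fgf13, Il17rd, Flrt1 and Flrt3 were also higher. Dusp6 (12.1 against 110.3 CPM, 2 of 23 cells) and Spry1 (6.84 against 66.4 CPM) were lower, as were Fgf1, Fgf11, Gab1, Spred1, Etv1 and Flrt2, and the median over the 20 genes was -0.52.

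**Figure D4:**
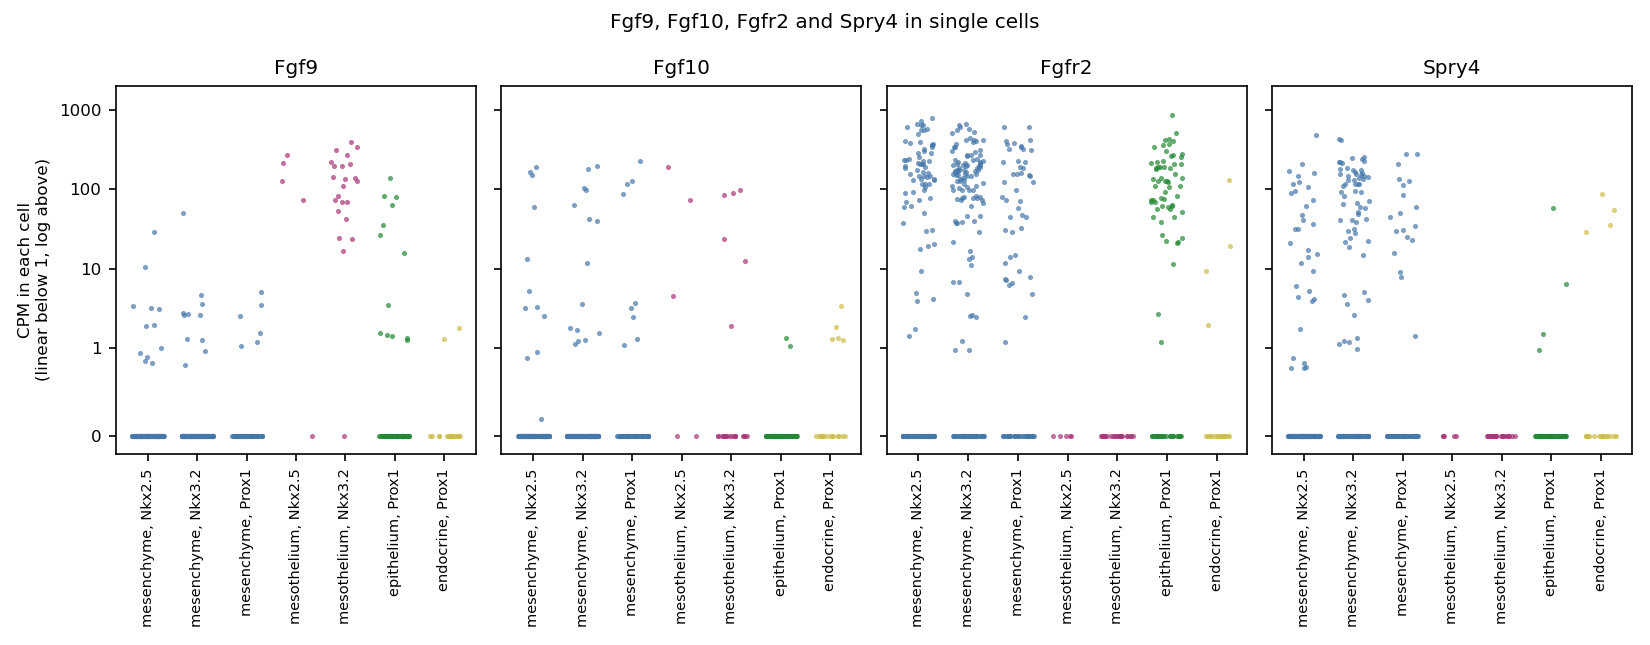
CPM in each cell (y axis, linear below 1 and logarithmic above) for Fgf9, Fgf10, Fgfr2 and Spry4 by class and line (x axis), 1 point per cell with sideways scatter for legibility. Fgf9 had a count in 22 of 23 mesothelium-like cells of the Nkx3.2 line, Fgf10 in 9 to 15 mesenchyme-like cells of each line, Fgfr2 in 61 of 88 epithelium-like cells and no mesothelium-like cell, and Spry4 in 63 mesenchyme-like cells of the Nkx3.2 line.

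Among members at 5 CPM or more, the mesenchyme-like cells differed most between the lines in Fgfr3 and in the feedback targets. In the Nkx2.5 line, of 6 members at 5 CPM or more, Spry2 was called higher than in the Nkx3.2 line, where 1.51% of all 11361 genes were, and Fgfr3 and Spry4 lower, where 2.39% were. The median log2 ratio of the 6 members was -1.07, beside 0.01 over all genes. Spry2 was 97.4 and 128.8 CPM on the plates of the Nkx2.5 line and 43.5 and 20.2 CPM on those of the Nkx3.2 line, a 3.27-fold difference with plate ratios from 2.24 to 6.37. Spry4 was 13.5 and 10.9 CPM against 34.6 and 46.4 CPM, 3.19-fold lower in the Nkx2.5 line. Fgfr3 was 1.53 and 1.22 CPM against 14.8 and 19.2 CPM, 11.95-fold lower. Etv5, at 5.10 and 8.31 CPM against 15.1 and 27.4 CPM, was 2.997-fold lower but 1.82-fold in the closest pair of plates, and was called lower without plate 6B or without plate 7A. The plate values of these 4 genes did not overlap between the lines. Fgfr1 was 1.47-fold lower and Fgfr2 1.14-fold lower in the Nkx2.5 line. The Nkx2.5 line had fewer detected genes per mesenchyme-like cell, with a median of 5745 against 7221, at a higher median of counts, 1054465 against 897271, and the part of this in the lower values was not tested. The calls of Spry2, Spry4 and Fgfr3 were the same after thinning to 100000 counts and under each other alternative. Of the other pathway genes, 19 were compared and 1 was called, Fgf12, lower in the Nkx2.5 line (2.10 against 5.19 CPM), and the median log2 ratio was 0.01.

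No plate holds cells of more than 1 line, so a difference between plates and one between lines cannot be told apart. In the mesenchyme-like cells of the Prox1 line 1 of 7 members was called lower than in the Nkx3.2 line, Fgfr3 at 3.0-fold, where 2.19% of all 11432 genes were, and none higher, where 1.49% were. The median log2 ratio of the 7 members was -0.22, beside 0.02 over all genes. Spry2 was 2.18-fold higher, with plate ratios from 1.39 to 4.19, and Spry4 1.86-fold lower, with plates of 12.8 and 26.7 CPM against 34.6 and 46.4 CPM. Leaving out 1 plate added calls, of Spry2 (log2 ratio 1.89 without plate 7A), Fgf10 (1.88 without plate 7B) and Spry4 (-1.61 without plate 8B). Against the Nkx2.5 line, the Prox1 line was called higher in 2 of 7 members, Fgfr3 at 3.98-fold and Etv5 at 4.08-fold, where 1.79% of all 11434 genes were, and lower in none, where 1.71% were, with a median log2 ratio of 0.78 beside 0.01 over all genes. Under alternatives chosen after seeing the data, Fgfr3 was not called with thinned cells (log2 ratio 2.09) or without plate 8B (1.54), and Etv5 was not called with thinned cells (1.69) or with means of cells (1.61), while Fgf10 was called higher without plate 8A. The 3 comparisons of lines share samples. Among the other pathway genes, Flrt1 was called higher and Il17rd lower in the Prox1 line against each of the other lines, with medians of 0.28 over 21 genes (Nkx3.2 line) and 0.39 over 22 genes (Nkx2.5 line).

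Within the mesenchyme-like cells of each line, Spry4 was found in a larger share of cells with Etv5 than of cells without. After thinning, Spry4 had a count in 21 of 30 cells with Etv5 in the Nkx3.2 line [50.6% to 85.3%] and in 23.9% [17.1 to 31.9] of cells without. The values were 7 of 14 cells [23.04% to 76.96%] and 15.9% [7.88 to 27.3] in the Prox1 line and 37.5% [8.52 to 75.5] and 12.5% [7.81 to 18.6] in the Nkx2.5 line, where only 8 cells held Etv5. The direction was the same in each line. The intervals were apart only in the Nkx3.2 line, where the most cells held Etv5, so they do not set the lines apart. With Dusp6 the same held, as Spry4 was found in 51.9% [40.5 to 63.1] of cells with it and 13.8% [7.34 to 22.9] of cells without in the Nkx3.2 line. The shares were 30% [16.6 to 46.5] and 13.5% [4.54 to 28.8] in the Prox1 line and 20.9% [10.04 to 36.04] and 11.2% [6.26 to 18.1] in the Nkx2.5 line. For the receptor Fgfr2 and Etv5 the intervals overlapped, with shares of 18.2% of cells with Fgfr2 and 17.4% of cells without in the Nkx3.2 line, and of 24.1% and 33.3% in the epithelium-like cells. Fgfr4 was found in 77.6% [64.7 to 87.5] of epithelium-like cells with Fgfr2 and 40% [22.7 to 59.4] of those without. Cells of a line share plates and library quality, and these shares are descriptions.

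The members also differed between the mesenchyme-like clusters of a line. In the Nkx3.2 line, Fgfr2 ranged from 7.71 CPM in cluster 6 to 190.5 CPM in cluster 5, and Fgfr1 from 115.6 to 300.9 CPM, the latter in cluster 6. Cluster 6, 16 cells from both plates led by Acta2, Ptx3 and Egr1, held a count of Fgfr1 in 16 cells and of Fgfr2 in 2. Its Spry4 was at 63.4 CPM and its Etv5 at 0.714 CPM. Etv5 was highest in cluster 2 (57.4 CPM, 7 of 18 cells), among whose leading genes are the splenopancreatic markers Robo2, Kazald1 and Slc40a1. Fgf10 was highest in cluster 3, at 22.4 CPM, from 2 of 16 cells. In the Nkx2.5 line Spry2 ranged from 32.3 to 265.3 CPM over 13 clusters and Fgfr1 from 41.3 to 221.2 CPM, whereas Etv5 had no count in 7 of the 13.

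The genes whose order over cells was most like that of a member were named by the highest rank correlation in every plate, in the class where the member was higher, and are given as a description, since the points share libraries and depth. In the 88 epithelium-like cells, over 11264 genes, Etv5 was most like Tmem97, Eif5a and Mif, with a lower plate value of 0.488, 0.487 and 0.467. Fgfr2 was most like Notch2, Pik3ap1 and Adamts1 (0.483, 0.478 and 0.475). The leading genes of Fgfr3 were Pdzk1ip1, Pxdn and Herpud2 (0.412, 0.377 and 0.373), but Fgfr3 had a count in only 15.9% of cells, too few for a pattern. In the 413 mesenchyme-like cells each value is the lowest of up to 6 plates, against 2 plates in the epithelium, so the 2 sets cannot be compared. The mesenchymal values were low, and no likeness is read from them. The lowest plate value of the leading gene was 0.177 for Spry4 (Ppa1, Eif5a, Rps21), 0.156 for Fgfr1 (Prrc2a, Jup, Pknox2), 0.109 for Fgf10 (Ift57, Cntn3, Spg11) and 0.082 for Spry2 (Rccd1, Rilpl2, Wdr66). Fgf7, Fgf9 and Fgf18 had counts in 5.68%, 14.8% and 3.15% of the cells used, too few for a pattern, and their leading genes were Timp3, Tmc6 and Dmac2, Ces2f, Prss41 and Gm12106, and Ces2b, Prrx1 and Mob1b.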

How the data were processed

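Smart-seq2 libraries of 576 cells from 3 lines were used. Per the submitters' processing notes, the authors used Trim Galore 0.6.5, kallisto and GRCm38. The estimated count of each gene in each cell that they deposited is not normalized. Estimated counts need not be whole, and were used as deposited, except that sums were rounded for TMM factors. The cell filter required 100000 counts, 1000 detected genes and a mitochondrial share of no more than 30%. It removed 27 cells, all for low counts. Passing cells held 224814 to 1512736 counts each, and the Poisson intervals treat each read as an independent count. No doublet caller was run, and no libraries held identical values.

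Cells were clustered per line in scanpy 1.11.5 on counts scaled to 10000, with 2000 variable genes, 20 principal components, 20 neighbors, Leiden resolution 1.9 and the cell cycle difference regressed out. Endocrine-like and mesothelium-like clusters were named where their marker list reached a mean level of 3. Other clusters were named by the higher of the epithelial and mesenchymal marker means. The other cell was set apart by markers of blood, endothelium or neural cells. Sums of counts were compared without a test, as each line is 1 sample. Alternatives were a stricter filter, 1 clustering of all lines, classes given to each cell, means of cells, edgeR 4.0.16 TMM factors, no filter on low genes, thinning and leaving out plates. The fold rule was tested on simulated data. Names and positions come from GENCODE M21 (GRCm38). The members, the lists of markers and pathway genes and the rules were chosen with earlier results of these data known. The text names the members, pathway genes that were called or highest of their role, and the 3 genes most like each member among genes in at least 20% of cells, plus leading cluster genes chosen after their values were seen. Spry3 was not analysed here.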

Additional observations from a re-analysis of the deposited data

How the results depend on the processing

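Of 416 values of a member's ratio recomputed over the 6 comparisons with calls, 374 moved by no more than the limit set and 42 by more, and no called member changed direction. The limit was the spread between plate pairs, or a fixed value for the mesothelium-like cells, which had 1 pair. For the Prox1 against the Nkx2.5 line the alternatives were chosen after seeing the data. In the epithelium against the mesenchyme of the Prox1 line, the members called higher went from 0 to 2 with means of cells and to 2 with thinned cells, and to 1 with no filter on low genes. With no filter, which compares more genes, 2 members in place of 1 were called lower in the Prox1 against the Nkx3.2 line and 2 in place of 1 higher in endocrine-like cells. In the Prox1 against the Nkx2.5 line, 1 member in place of 2 was called higher with means of cells and 0 with thinned cells, and with no filter 1 in place of 0 was called lower. No filter also raised the genes called in the Nkx2.5 against the Nkx3.2 line to 467 higher and 932 lower (from 1.51% of genes and 271 genes), in the Prox1 against the Nkx3.2 line to 767 and 798 (from 170 and 250), in the Prox1 against the Nkx2.5 line to 4438 and 556 (from 1.79% and 1.71% of genes), in mesothelium-like cells to 6799 and 2676 (from 1402 and 1433) and in endocrine-like cells to 6911 higher (from 1782). The filter also keeps out genes whose sums are set to 3 counts in both groups. Without it, such a gene comes out higher in the group with the smaller total. Fgf18, with no count in either class on plate 8A, had an endocrine over epithelium ratio of 5.888 there for this reason. How many calls with no filter are of this kind was not counted, so their numbers are not read as differences. In endocrine-like cells 1 member in place of 2 was found in over 50% of cells with at least 5 counts, and 1 with thinned cells. Leaving out a plate leaves fewer pairs to pass. Members called then ranged from 0 to 2 higher and 3 to 4 lower in the epithelium, at 1 higher and 2 to 3 lower in the Nkx2.5 against the Nkx3.2 line, from 0 to 1 higher and 1 to 2 lower in the Prox1 against the Nkx3.2 line, and from 1 to 2 higher and 4 to 5 lower in endocrine-like cells. All genes called ranged from 2095 to 2396 higher and 2075 to 2147 lower, from 412 to 599 and 413 to 1082, from 391 to 622 and 390 to 828, and from 2718 to 2865 and 3460 to 3475 in the same order. In the Prox1 against the Nkx2.5 line, members called then ranged from 1 to 3 higher with 0 lower, and genes from 447 to 780 higher and 425 to 712 lower. Without plate 7A the mesothelium-like cells had 3 members higher and 4 lower, Etv5 added, with 1722 genes higher and 1815 lower, and the ratio of Etv5, which rests on 1 cell of that plate, turned from above 1 to below. Without plate 7B this comparison could not be made. No paired analysis was possible because the labels name no embryo and the replicate numbers only count cells, but classes of 1 line were compared within plates. The sums of Fgf7 and Fgf18 and, in the epithelium, of Fgf10 and Spry4 rest on few cells. With thinned cells, those with a count went from 2 to 0 for Fgf10 and from 4 to 1 for Spry4 in the epithelium, and were 5 at both depths for Fgf18 in the Nkx3.2 mesenchyme.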
